A study of Arabidopsis thaliana with 3 samples.

Results

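The miR160, miR167 and miR393 families, which act on auxin signalling, were read out in small RNA libraries of *Arabidopsis thaliana* seedlings. The members were chosen by name and comprise ath-miR160a, ath-miR160b and ath-miR160c, ath-miR167a, ath-miR167b, ath-miR167c and ath-miR167d, and ath-miR393a and ath-miR393b, written below without the species prefix. These 9 rows stand among 328 miRNA rows in the *cdf2* and Col libraries and among 338 in the *dcl1-9* library, and all 9 have the same name in each. The libraries came from 22-day-old plants in the Col ecotype, grown in soil without treatment under 16 h light and 8 h dark. The genotypes were a mutant of CDF2, a transcription factor of the Dof group (*cdf2*), a *dcl1-9* mutant, whose DCL1 protein is cut short in the C-terminal double-stranded RNA-binding domains, and the wild type (Col). Each genotype gave 1 library, and the number of plants in a library is not given in the sources used here. No difference between genotypes has a replicate check, so every interval below covers counting error only, and a fold change compares a pair of libraries. These libraries hold no mRNA readout, so the targets of these miRNAs, *CDF2* and *DCL1* were not read out in them. The labels could therefore not be checked against marker genes. The study's own qRT-PCR, which included *DCL1*, and its northern blots, which included miR160 and miR167, are not used here.

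Auxin is perceived by F-box receptors of the TIR1/AFB group, which mark Aux/IAA repressors for degradation. Auxin response factors (ARFs), which bind the promoters of auxin-regulated genes, are thereby set free to act. miR393 directs cleavage of the *TIR1*, *AFB2* and *AFB3* mRNAs, miR160 of *ARF10*, *ARF16* and *ARF17*, and miR167 of *ARF6* and *ARF8*, which are activating ARFs with roles in flower and root development. Mature miRNAs are cut from hairpin transcripts by DCL1 in the nucleus.

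The 9 rows stand for 5 different mature sequences, which are shown because rows with the same sequence cannot be separate measurements. They were read from the RefSeq annotation of the TAIR10.1 assembly, in DNA letters and 5′ to 3′, with bases 2 to 8 (the seed) in capitals. The deposited count files hold no coordinates.
miR160a, miR160b and miR160c: tGCCTGGCtccctgtatgcca
miR167a and miR167b: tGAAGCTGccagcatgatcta
miR167c: tAAGCTGCcagcatgatcttg
miR167d: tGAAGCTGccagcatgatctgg
miR393a and miR393b: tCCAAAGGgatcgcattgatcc
miR167a, miR167b and miR167d have 1 seed, GAAGCTG. The annotated miR167c has the seed AAGCTGC and shares a run of 18 bases with miR167a, while miR167d shares 20. The longest run shared between miR160 and miR167 is 5 bases.

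None of the mature sequences overlaps a protein-coding gene in that annotation. The miR160 sequence lies at chr2:16340282-16340302 on the plus strand (miR160a, locus AT2G39175), at chr4:9888986-9889006 on the plus strand (miR160b, AT4G17788) and at chr5:19009158-19009178 on the minus strand (miR160c, AT5G46845). Of the miR167 loci, miR167a is at chr3:8108090-8108110 (plus strand, AT3G22886), miR167b at chr3:23406177-23406197 (plus strand, AT3G63375), miR167c at chr3:1306750-1306770 (minus strand, AT3G04765) and miR167d at chr1:11137556-11137577 (plus strand, AT1G31173). miR393a is at chr2:16652111-16652132 (AT2G39885) and miR393b at chr3:20691657-20691678 (AT3G55734), both on the plus strand. The annotated hairpins are between 85 and 89 bases long for miR160 and between 109 and 377 bases for miR167, of which that of miR167d is the longest.

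The sites that these miRNAs are known to cut were located as the stretch of each spliced target transcript that pairs best with the miRNA, without gaps. They are shown to tie each family to its step in the pathway, with bases that form a Watson-Crick pair in capitals.
ARF17 (miR160): TGGCATgCAGGGAGCCAGGCA
ARF10 (miR160): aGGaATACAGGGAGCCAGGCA
ARF16 (miR160): gGGttTACAGGGAGCCAGGCA
ARF8 (miR167a): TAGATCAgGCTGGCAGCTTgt
ARF6 (miR167a): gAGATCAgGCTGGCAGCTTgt
AFB2 and AFB3 (miR393): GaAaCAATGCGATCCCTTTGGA
TIR1 (miR393): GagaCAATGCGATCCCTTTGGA
All 8 sites lie in coding sequence. The ARF17 site, at chr1:29274189-29274209, pairs at 20 of 21 bases and forms 1 G:U pair at the other, and the ARF6 site, at chr1:10686478-10686498, pairs at 17 of 21. The sites of the receptors AFB2 and AFB3 have the same letters and pair with miR393 at 20 of 22 bases, against 19 for TIR1 at chr3:23273727-23273748. The levels of these target mRNAs were not measured, so a pairing is a feature of the sequence and not evidence of cleavage in these plants.

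The deposited tables scale each library to a total of 14406060 reads for *cdf2*, 9443719 for *dcl1-9* and 14073145 for Col, and the levels below are in RPM, reads scaled to these totals. A single read stands for 0.0694 RPM in *cdf2*, 0.106 in *dcl1-9* and 0.0711 in Col. The miRNA rows add up to 5248526 reads in *cdf2*, 378685 in *dcl1-9* and 8833288 in Col, and rows of the same mature sequence can carry nearly the same count each. The study's methods name perfectly aligned reads as the basis of normalization, but the tables do not say whether their totals are these. The totals differ from the read numbers given in the study, being larger for *cdf2* and Col and smaller for *dcl1-9*. For *cdf2* and Col they thus cannot be a subset, such as the aligned reads, of the reads as numbered there. A different total multiplies all fold changes of a library by 1 factor. For that reason the ratio between families within a library, in which the total cancels, is given beside each fold change.

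miR167 was the abundant family of the 3. The miR167a row had 233141 reads in *cdf2* and 3952 in *dcl1-9*, against 404544 in Col. The miR167b row, with the same mature sequence, had 233357 reads in *cdf2* and 3955 in *dcl1-9*, against 405006 in Col. miR167b thus had 100.1% of the miR167a count in every library, and the pair is not a repeat measurement. In RPM, miR167b was at 16199 in *cdf2* and 419 in *dcl1-9*, against 28779 in Col. The RPM level was highest in Col and lowest in *dcl1-9*, and the counting intervals of the 3 libraries do not overlap. miR167d, which ends in 2 other bases, had 2195 reads in *cdf2* and 68 in *dcl1-9*, against 4015 in Col, which are 152, 7.20 and 285 RPM. miR167c had 34 reads in *cdf2* and 0 in *dcl1-9*, against 56 in Col, which is 2.36 RPM in *cdf2* and 3.98 in Col. A count of 0 in *dcl1-9* allows a level of up to 0.318 RPM, taking 3 reads as the limit.

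miR160 was found at a few RPM. miR160a had 105 reads in *cdf2* and 33 in *dcl1-9*, against 121 in Col, which are 7.29 RPM (95% interval 5.96 to 8.82) in *cdf2*, 3.49 (2.41 to 4.91) in *dcl1-9* and 8.60 (7.13 to 10.3) in Col. miR160c had 107 and 33 reads in *cdf2* and *dcl1-9*, against 126 in Col. For miR160a the intervals of *cdf2* and Col overlap, and that of *dcl1-9* lies below both on this scale. miR160b, of the same mature sequence, had 64 reads in *cdf2* and 0 in *dcl1-9*, against 13 in Col. In RPM, miR160b was at 4.44 (3.42 to 5.67) in *cdf2* and 0.924 (0.492 to 1.58) in Col, and these intervals do not overlap.

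miR393 was close to the limit of what the libraries can count. miR393a had 11 reads in *cdf2* and 0 in *dcl1-9*, against 3 in Col, and miR393b had the same numbers. These are 0.764 RPM (0.381 to 1.37) in *cdf2* and 0.213 (0.0440 to 0.623) in Col, which overlap. The 0 reads of *dcl1-9* allow up to 0.318 RPM, which is more than was measured in Col, so a loss of miR393 in *dcl1-9* was not detectable at this depth.

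**Figure D1:**
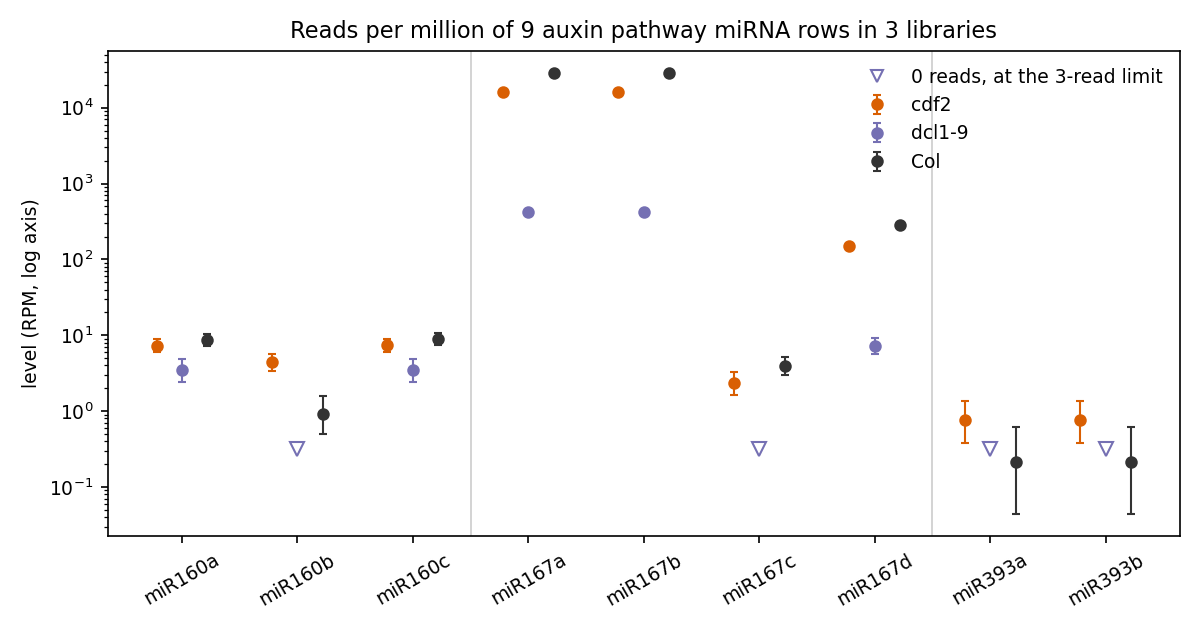
Level of each of the 9 miRNA rows in RPM on a log axis, with 1 point per library (*cdf2*, *dcl1-9*, Col) and 95% Poisson intervals for counting error. Open triangles stand for 0 reads and are drawn at the limit of 3 reads. miR167a and miR167b lie at 16184 to 28779 RPM in *cdf2* and Col and near 419 in *dcl1-9*, while every miR160 and miR393 row is under 10 RPM in each library.

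For comparisons between families, 1 row was taken for each mature sequence, the one with the most reads, and the sequences of a family were added up. In that count miR167 had 235586 reads in *cdf2* and 4023 in *dcl1-9*, against 409077 in Col, miR160 had 107 and 33, against 126, and miR393 had 11 and 0, against 3. Over all miRNA families, each taken by its highest row, miR167 held 14.4% of the reads in *cdf2*, 4.93% in *dcl1-9* and 15.2% in Col. It ranked 4 of 187 families in *cdf2*, 5 of 194 in *dcl1-9* and 4 of 187 in Col. miR160 ranked 56 in *cdf2*, 21 in *dcl1-9* and 51 in Col. It held 0.00659% of the family reads in *cdf2*, 0.0412% in *dcl1-9* and 0.00472% in Col, so its share in *dcl1-9* was above that in both other libraries while its RPM was below. miR393 ranked 95 in *cdf2*, in a tie of 2, and 127 in Col, in a tie of 5. In *dcl1-9* it was 1 of 109 families with 0 reads.

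In *cdf2*, the miR167 family was lower than in Col on each scale tried, miR160a and miR160c differed by less than counting error on the deposited totals, and the miR160b row was higher. For miR167 as a whole the fold change was 0.563 (95% Clopper-Pearson interval 0.560 to 0.565), with 0.563 for miR167a and for miR167b, 0.534 (0.507 to 0.563) for miR167d and 0.593 (0.376 to 0.924) for miR167c. The 4 rows hold 3 separate sequences, and their intervals lie below 1 on the deposited totals. They come from 1 pair of libraries and share its totals, so they are not repeat observations of a difference between genotypes. Under 4 other scales the miR167 fold change lay between 0.536 and 0.969, the last with libraries scaled to their miRNA sums, where miR167c was at 1.02. The miR160 family had a fold change of 0.830 (0.635 to 1.08), so that no difference was detectable, whereas with miRNA sums it was 1.43 (1.09 to 1.86) and above 1. The miR393 fold change was 3.58 (0.946 to 20.0) on 11 and 3 reads, which includes 1.

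Of the 9 rows, 4 were at least 1.5-fold lower in *cdf2*, all of miR167, and 3 were at least 1.5-fold higher, which were miR160b, miR393a and miR393b. Among the 230 miRNA rows whose reads in *cdf2* and Col added up to 10 or more, 35.2% were lower and 16.5% higher by that much. The median log2 fold change was -0.27 over the 9 rows and -0.33 over the 230. The miR167 rows lay below the median of all rows, with between 34 and 58 rows lower than them. miR160a (log2 fold change -0.24) and miR160c (-0.27) were near it. miR160b, at 2.27, was 4th from the top, and only 3 rows were higher. miR393a and miR393b shared place 5, but with 3 reads in Col they met the minimum of 10 reads only through the 11 in *cdf2*, so their place there is no evidence of a difference. The calls depend on the scale, as with miRNA sums and with DESeq2's size factors no miR167 row was 1.5-fold lower (0.970 and 0.704 for miR167a), and with miRNA sums 6.96% of all rows were lower and 43.5% higher.

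The rows of miR160 did not move together, although their mature sequence is 1. miR160c had 102% of the miR160a reads in *cdf2* and 104% in Col, and the same 33 reads in *dcl1-9*. miR160b had 61.0% of the miR160a reads in *cdf2*, against 10.7% in Col, a 5.67-fold change of that ratio (2.88 to 11.8) which no scaling alters. In *dcl1-9* it had 0 reads beside 33 of miR160a. This pair was singled out after its values were seen. The mature sequence (capitals) in its genomic surroundings is shown because the loci differ in their flanking bases.
miR160a: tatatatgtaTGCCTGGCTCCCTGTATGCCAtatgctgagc
miR160b: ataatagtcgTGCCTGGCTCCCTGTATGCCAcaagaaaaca
miR160c: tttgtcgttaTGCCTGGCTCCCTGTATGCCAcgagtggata
The windows are chr2:16340272-16340312 (plus strand), chr4:9888976-9889016 (plus) and chr5:19009148-19009188 (minus). The base just before the mature sequence is A in miR160a and miR160c and G in miR160b, and the base just after it is T in miR160a and C in both others. The files do not hold the reads, so which bases the reads of each row covered was not tested, and the sources used here do not say how reads that match several rows were assigned. The interval of the miR160b to miR160a ratio takes the reads of both rows as separate, which is not known to hold. With all 3 rows added up, the miR160 fold change in *cdf2* was 1.04 in place of 0.830. No interval is given for this sum, because rows of the same mature sequence may count the same reads more than once.

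In *dcl1-9*, miR167 was lower than in Col on each scale tried, by 68.2-fold on the deposited totals and with a fold change of 0.357 under TMM. miR160 was 2.56-fold lower on the deposited totals. On scales set by the miRNA rows it was higher, which is a value relative to those rows. For miR167 as a whole the fold change was 0.0147 (0.0142 to 0.0151), which is 68.2-fold lower. miR167d was 39.6-fold lower, with a fold change of 0.0252 (0.0196 to 0.0321), and miR167c, at 0 reads, was at least 12.5-fold lower if 3 reads are taken as the limit. The upper 95% bound of the miR167c fold change, which includes the counting error of Col, was 0.101. The miR160 family had a fold change of 0.390 (0.258 to 0.576), which is 2.56-fold lower, and miR160a one of 0.406 (0.268 to 0.601). miR160b, at 0 reads, was at least 2.91-fold lower by the same limit, with 0.489 as the upper 95% bound of its fold change. No fold change is given for miR393, since both libraries were at or under the limit of 3 reads. All 7 rows of the other families were at least 1.5-fold lower on the deposited totals. So were 98.5% of the 204 miRNA rows whose reads in *dcl1-9* and Col added up to 10 or more. The count therefore says nothing particular about the members. With 0 reads in *dcl1-9*, miR160b and miR167c met the minimum of 10 reads only through Col. With 3 reads as the limit, their call as lower was thereby fixed in advance. The same holds for all 108 of the 204 rows that had 3 or fewer reads in *dcl1-9*, so the 98.5% is itself partly fixed in advance.

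The families differed in the size of the change in *dcl1-9*. The median log2 fold change over the 204 rows was -3.67, with 3 reads as the lowest count. The miR160a value of -1.30 was 9th from the top, that of miR160c, -1.36, 13th. miR160b has no measured place, since its 0 reads give only a limit. The miR167a and miR167b values of -6.10 had 36 and 35 rows below them, and miR167d, at -5.31, had 59. In *dcl1-9* 108 of the 204 rows had 3 or fewer reads, and their values are limits rather than estimates. The places and row counts given here include such rows, so they are approximate. The direction of the miR160 fold change depends on the scale, as it was 6.11 with the sum of miRNA reads, 9.52 with TMM and 6.84 with DESeq2's size factors, the scales set by the miRNA rows themselves. Such scales take the miRNA rows as a group as unchanged. Yet the family reads, by highest row, made up 0.849% of the deposited total in *dcl1-9*, against 19.0% in Col. Values above 1 on these scales thus place miR160 relative to the other miRNA rows and are no evidence of a rise. miR167 remained below 1 under each of these scales, with fold changes of at most 0.357.

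**Figure D2:**
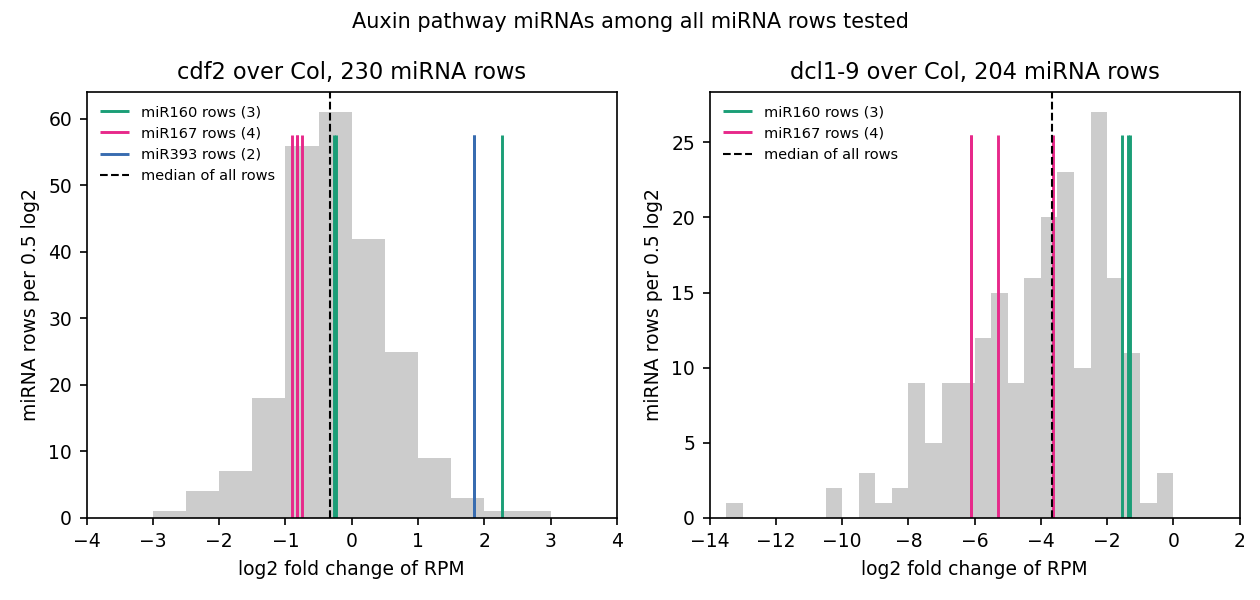
Distribution of log2 fold changes of RPM over all miRNA rows whose reads in the compared libraries added up to 10 or more, for *cdf2* over Col (left, 230 rows) and *dcl1-9* over Col (right, 204 rows), with counts of 3 or fewer set to 3. Coloured lines are the miR160, miR167 and miR393 rows and the dashed line is the median of all rows, at -0.33 on the left and -3.67 on the right. In *cdf2* the miR167 rows lie left of the median and miR160b and miR393 far to the right, and in *dcl1-9* miR160a and miR160c lie near the upper end on the deposited totals, while the miR160b line is a limit set by 3 reads.

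The ratios between families do not depend on the library totals. The ratio of miR167 to miR160 reads was 2202 (95% interval 1822 to 2687) in *cdf2* and 122 (86.7 to 177) in *dcl1-9*, against 3247 (2727 to 3898) in Col. The ratio of *cdf2* to Col was 0.678 (conditional exact interval 0.520 to 0.886), so miR167 was lower relative to miR160 in the *cdf2* library. With all member rows added up it was 0.543, given without an interval because rows of the same mature sequence may share reads. The ratio of *dcl1-9* to Col was 0.0375 (0.0254 to 0.0570), a 26.6-fold fall. Both changes lie beyond counting error, and both share the Col library, so they are not separate observations of Col.

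miR393 stood at 0.103 reads per miR160 read (0.0498 to 0.191) in *cdf2*, against 0.0238 (0.00485 to 0.0712) in Col. The change of this ratio was 4.32-fold (1.10 to 24.6). The ratio of miR167 to miR393 was 21417 in *cdf2*, against 136359 in Col, a change of 0.157 (0.0281 to 0.595). These intervals leave out 1, but they rest on 3 reads in Col. Both ratios use the same 11 and 3 miR393 reads, so they are not separate observations. The miR393 fold change on these reads included 1 on the deposited totals (0.946 to 20.0). In *dcl1-9* the 33 miR160 reads and 0 miR393 reads allow a ratio of up to 0.0909, a limit above the Col value, so no change could be seen.

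**Figure D3:**
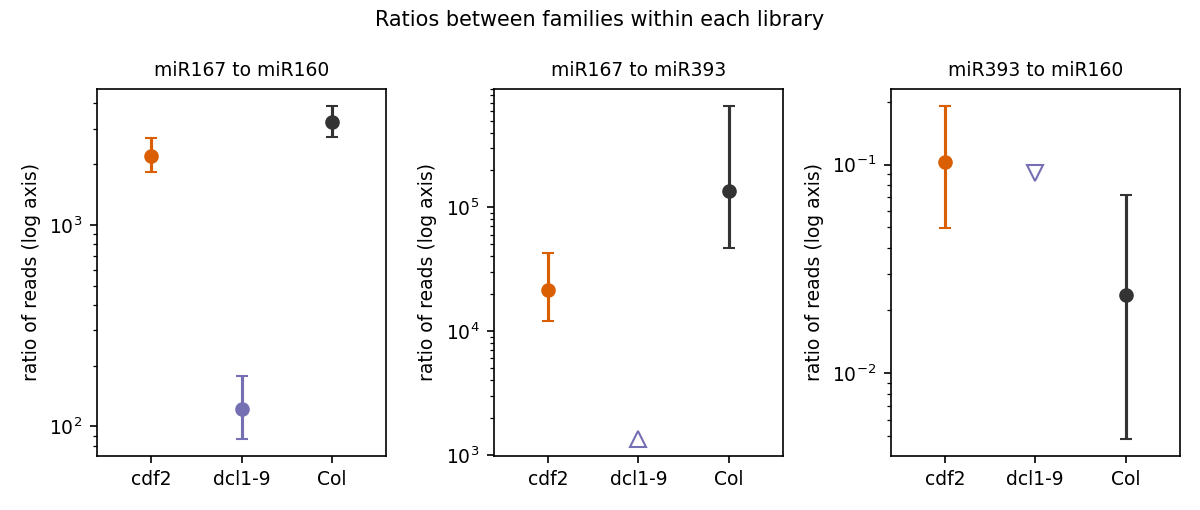
Ratio of reads between families within each library (*cdf2*, *dcl1-9*, Col) on log axes, with 95% Clopper-Pearson intervals for counting error. Open triangles are limits where miR393 had 0 reads, a lower limit in the middle panel and an upper limit in the right one. The miR167 to miR160 ratio is 2202 in *cdf2*, 122 in *dcl1-9* and 3247 in Col.

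Within the miR167 family the composition was close to constant between *cdf2* and Col. miR167d had 0.941% of the miR167a reads in *cdf2*, against 0.992% in Col, and the change of this ratio, 0.949 (0.900 to 0.9995), is at the edge of counting error. In *dcl1-9* miR167d had 1.72% of the miR167a reads, a 1.73-fold higher ratio than in Col (1.34 to 2.21). This rests on 68 miR167d reads, and how reads were assigned between these similar sequences is not known. The member ratios within miR167 were also chosen after their values were seen, so their intervals do not belong to planned comparisons. miR167c had 0.0146% of the miR167a reads in *cdf2* and 0.0138% in Col, which did not differ detectably (change 1.05, 0.667 to 1.64).

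**Figure D4:**
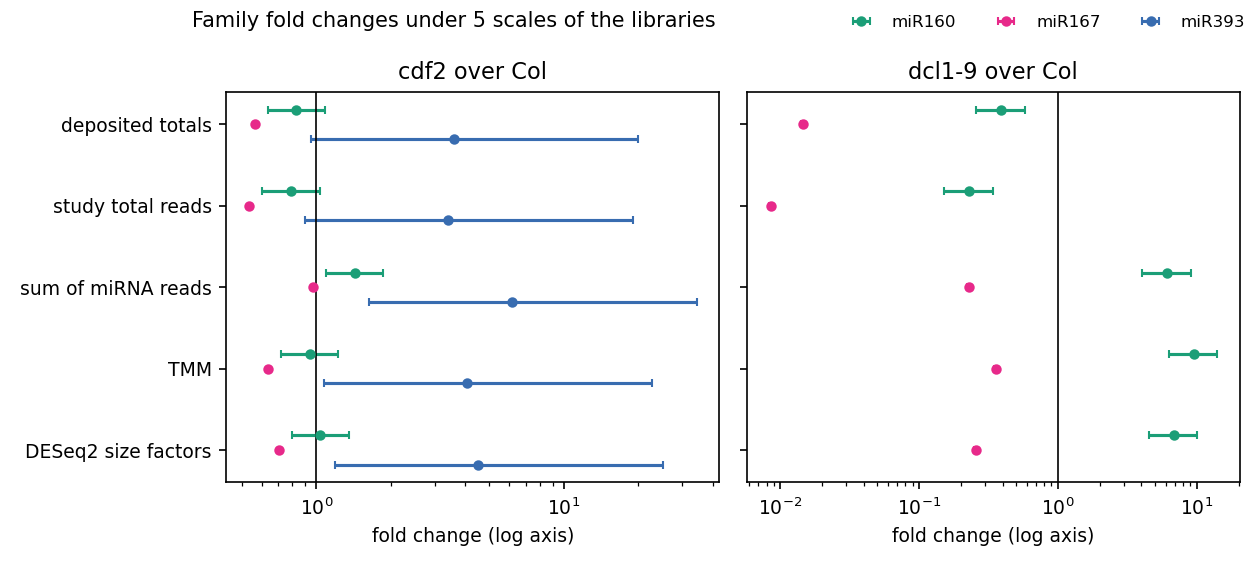
Fold changes of the families in *cdf2* (left) and *dcl1-9* (right) over Col on a log axis, under 5 scales of the libraries, with 95% counting intervals and a vertical line at 1. In *cdf2*, miR167 moves between 0.536 and 0.969 and miR160 between 0.790 and 1.43. In *dcl1-9*, miR160 moves across 1, from 0.230 to 9.52, while miR167 stays between 0.00864 and 0.357. The miR160 values above 1 there come from the scales set by the miRNA rows and are relative to those rows.

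Other miRNAs linked to auxin were miR390, which starts the TAS3 small RNAs against *ARF2*, *ARF3* and *ARF4*, miR164, which targets *NAC1* and *CUC* genes, and miR847, which targets *IAA28*. On the deposited totals, 3 of these 6 rows were at least 1.5-fold lower in *cdf2* and 0 were higher. Among all rows the shares were 35.2% and 16.5%. The miRNA sums raise log2 values of *cdf2* by 0.78 and DESeq2's size factors by 0.32. From log2 fold changes of -0.69, miR390a and miR390b are not 1.5-fold lower on these scales, while miR164c, at -1.93, is. miR390a had 9820 reads in *cdf2*, against 15454 in Col (fold change 0.621, 0.605 to 0.637). miR390b had nearly the same counts, so the pair may be 1 measurement. miR164c had 443 reads in *cdf2*, against 1654 in Col (0.262, 0.235 to 0.291). miR164a and miR164b had fold changes of 0.736 each, and miR847 had 6 and 7 reads, which is too few to compare. In *dcl1-9* the 5 rows that had enough reads were at least 1.5-fold lower, which is near the 98.5% of all rows. That share was partly fixed in advance by the limit of 3 reads. miR390a had 844 reads in *dcl1-9* (fold change 0.0814, 0.0758 to 0.0872) and miR164a had 94 (0.0136, 0.0110 to 0.0167). miR847, with 1 read in *dcl1-9* and 7 in Col, fell short of the 10 reads required. On the deposited totals, miR390 thus fell less than miR167 and more than miR160 in that library. The scales set by the miRNA rows raise log2 values of *dcl1-9* by 3.97 to 4.61, beside -3.62 for miR390a. Only the order of these changes, and not a fall of miR390 or miR160, holds on those scales.

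The families whose profile over the 3 libraries was most like these were found by the Euclidean distance of log2 RPM, centred on its mean, with 3 reads as the lowest count. Among 57 other families with at least 100 reads in Col, miR168, which targets *AGO1*, was nearest to miR160 (distance 0.69), followed by miR5642 (0.70) and miR5659 (0.91). miR168 had 82578 reads in *cdf2* and 17206 in *dcl1-9*, against 129349 in Col. Nearest to miR167 were miR851 (0.22), which had 0 reads in *dcl1-9* and so rests on the limit there, miR157 (0.24) and miR163 (0.27). miR157, which targets SPL genes, had fold changes over Col of 0.601 in *cdf2* and 0.0182 in *dcl1-9*. The nearest to miR393 were miR5642 (1.61), miR160 (1.66) and miR5659 (1.86) among 58 families, at distances larger than those of the other families, and the miR393 profile rests on 11, 0 and 3 reads.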

How the data were processed

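Small RNAs of 3 genotypes were sequenced by the authors in 1 library each. Per the labels and the methods, reads were trimmed, mapped with Bowtie to miRBase hairpins (TAIR10 is the build named) and aligned to known miRNAs, and the authors deposited raw counts of reads per miRNA. They also deposited tables with a library total, the counts and RPM values. These RPM equal count over total within 0.0002 RPM for all 194 rows of *cdf2* and all 132 rows above 0 of *dcl1-9*. The log2 fold changes and p-values in those tables were not used.

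The counts were scaled here by the totals in these tables. Fold changes have 95% Clopper-Pearson intervals, levels exact Poisson intervals, and changes of ratios conditional exact intervals (log-normal where all 4 counts were at least 1000), computed with Python 3.11.15 and scipy 1.17.1. They were checked on simulated counts with counting error only, so the check does not cover reads shared between rows or differences between plants. With 1 library per genotype no p-value is given. A change means at least 1.5-fold, counts of 0 were taken as 3 reads in folds, and rows needed 10 or more reads over the compared libraries. Of 328 Col rows 308 were joined to *dcl1-9*, 16 by a later name. Alternatives were the total reads stated by the study, miRNA sums, TMM (edgeR 4.0.16), DESeq2 1.42.0 size factors, sums over member rows, 1 added read, other filters and a 2-fold limit. Named were all 9 members, 6 other auxin-linked rows and the 3 nearest families. Members and lists were chosen with earlier results of these data known. Molecular identifiers are not mentioned in the sources used here, so intervals cover counting error only. Target sites were searched in RefSeq transcripts, with a G:U pair counted as 0.5 of a mismatch.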

Additional observations from a re-analysis of the deposited data

How the results depend on the processing

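No paired analysis was possible because there is 1 library per genotype, and leaving out a replicate was not possible for the same reason. Each library total shifts all rows by 1 factor. The 4 other scales were the study's total reads, miRNA sums, TMM and size factors of DESeq2, and relative to the deposited totals they shifted log2 values of *cdf2* by -0.07, 0.78, 0.18 and 0.32, and of *dcl1-9* by -0.76, 3.97, 4.61 and 4.13. In that order the miR167 fold change was 0.536, 0.969, 0.636 and 0.704 in *cdf2* and 0.00864, 0.229, 0.357 and 0.257 in *dcl1-9*. That of miR160 in *cdf2* was 1.43 with miRNA sums, and in *dcl1-9* it was 0.230, 6.11, 9.52 and 6.84. miR160c in *dcl1-9* gave these last 3 values as well, and miR160a 6.36, 9.91 and 7.12. miR167c in *cdf2* was 1.02 with miRNA sums. The 0 counts of miR160b and miR167c in *dcl1-9* then set no direction. The miR393 interval in *cdf2* left out 1 with miRNA sums, TMM and DESeq2 (lower bounds 1.63, 1.07 and 1.18) and included it with the study's total reads (0.901). The changes of ratios between families kept their direction with member rows added up and with 1 read added.

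The share of rows at least 1.5-fold lower in *cdf2* was 6.96% with miRNA sums, 14.8% with DESeq2, 30.7% (43 of 140) among rows with at least 100 reads and 13.0% at a 2-fold limit. The share higher was 43.5%, 28.3%, 10% and 6.96% in that order. In *dcl1-9* the share lower was 36.8% with miRNA sums, 31.4% with TMM, 35.8% with DESeq2 and 99.2% (119 of 120) among rows with at least 100 reads, and the share higher was 44.1%, 54.4% and 45.1% under the first 3 of these. These shares changed with the scale, with the rows admitted or with the limit, as each alternative was built. Depth limits miR393, at 11 reads or fewer, and every row with 0 reads.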
